A study of Homo sapiens with 4 samples.

Results

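Crosslink sites of PDCD4 were examined on the RNAs of 5 genes of the membrane skeleton: the spectrins SPTAN1 and SPTBN1, the ankyrin ANK3 and the adducins ADD1 and ADD3. Sites were taken by an exact match of the gene symbol in the label that each listed site carries, whatever its score. The 5 genes, out of 14416 with a listed site, held 318 of the 158922 sites in the PDCD4 list and 119 of the 111361 sites in the IgG list. The sites come from iCLIP, in which UV light fixes RNA to protein, the protein is immunoprecipitated, and the cDNA ends mark the crosslinked nucleotide. The cells were MCF10A, an untransformed human breast epithelial line, labelled wild type and cultured with horse serum, EGF, insulin, hydrocortisone and cholera toxin in all samples. The 2 replicates of each group were immunoprecipitated with an antibody to PDCD4 or with isotype control IgG, and no treatment separated the groups. Nothing states whether the replicates were separate cultures. The replicates of each immunoprecipitation are pooled into 1 list, which leaves no measure of replicate error, so no p-value is given and every interval covers counting error only.

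PDCD4 is a tumour suppressor protein that binds RNA and is best known as an inhibitor of translation initiation. Spectrins are long, flexible rods built from repeated helical bundles. An α and a β chain pair side by side and join end to end into tetramers that crosslink short actin filaments into a net under the plasma membrane. Ankyrins tie this net to membrane proteins by binding β-spectrin, and adducins cap the fast-growing ends of the actin filaments and recruit spectrin to them. In epithelial cells the net lines the lateral membrane, where ankyrin-G, the product of ANK3, takes part in building that domain.

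A score is the number of cDNAs counted at a site. The scores summed to 409308 cDNAs for PDCD4 and 276139 for IgG, and values are therefore given per 10000 cDNAs of the list, with 1 cDNA added to each sum in ratios. Of the marker genes checked for the labelled cell type, all 11 of basal breast epithelium were in the PDCD4 list and 10 in that of IgG, and 5 of 7 luminal ones were in the PDCD4 list. KRT5, a basal keratin, had 352 PDCD4 and 74 IgG cDNAs. None of the markers of endothelium or of erythroid cells had a site in either list, DCN was the lone fibroblast marker with any (2 cDNAs in each list), and CD14 was the lone leukocyte marker (2 cDNAs in the IgG list). RNA abundance was not measured in these lists, so that tighter binding and a more abundant RNA cannot be told apart from a gene's share of 1 list.

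The spectrin mRNAs took a larger share of the PDCD4 list than of the IgG list, whereas ANK3 and ADD3 took a smaller share and counting error did not separate the lists for ADD1. SPTBN1 held 184 PDCD4 sites (449 cDNAs) and 27 IgG sites (65 cDNAs), which is 10.97 and 2.35 per 10000. SPTAN1 held 78 sites with 232 cDNAs and 29 sites with 68 cDNAs, which is 5.67 and 2.46 per 10000. These are log2 ratios of 2.20 (95% exact counting interval 1.84 to 2.62) for SPTBN1 and 1.19 (0.81 to 1.61) for SPTAN1. ADD1 held 83 and 57 cDNAs, or 2.03 and 2.06 per 10000, a log2 ratio of -0.03 (-0.53 to 0.49). ANK3 held 52 and 60 cDNAs, or 1.27 and 2.17 per 10000, a log2 ratio of -0.77 (-1.34 to -0.21). ADD3 held 16 and 40 cDNAs, or 0.391 and 1.45 per 10000, a log2 ratio of -1.84 (-2.83 to -1.02). The members were therefore spread over both sides of the IgG control rather than moving as a group, and together the spectrins made up 81.9% of the members' PDCD4 cDNAs and 45.9% of their IgG cDNAs.

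**Figure D1:**
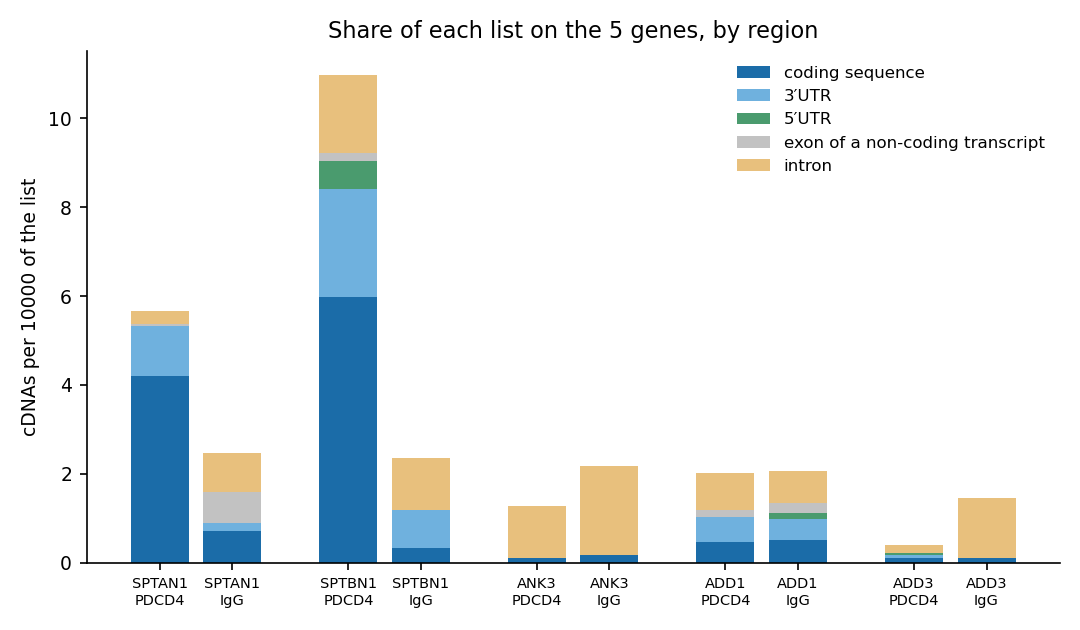
Stacked bars give the cDNAs on each gene per 10000 cDNAs of the PDCD4 or the IgG list (vertical axis), split by the region of the gene. The PDCD4 bars of SPTAN1 and SPTBN1 are mostly coding sequence, whereas those of ANK3 and the IgG bar of ADD3 are mostly intron.

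All 5 members had at least 50 cDNAs over both lists, the minimum for a gene to be compared. A share over 2-fold higher in the PDCD4 list was reached by 2 of the 5, SPTAN1 and SPTBN1, beside 13.6% of the 3972 genes with that minimum. A share over 2-fold lower was reached by 1, ADD3, beside 12.7% of the same genes. The median log2 ratio was -0.03 over the members and -0.14 over all compared genes (quartiles -0.66 and 0.53). SPTBN1 lay above 97.3% of the compared genes, SPTAN1 above 89.3%, ADD1 above 55.0%, ANK3 above 20.6% and ADD3 above 1.21%. With all scores, and with each cDNA taken as an independent count, the counting intervals of the differences between members excluded 0 for every pair. The interval nearest to 0 was that of ANK3 minus ADD1 (-0.74, interval -1.45 to -0.02). The spectrins also differed from each other, with SPTAN1 minus SPTBN1 at -1.01 (-1.55 to -0.48). By number of sites in place of cDNAs, SPTAN1 stood at 0.88, below 2-fold, and SPTBN1 stayed above it. ANK3 and ADD3 stood at -1.05 (-1.99 to -0.18) and -1.71 (-3.49 to -0.39) by that measure, intervals that overlap. With scores greater than 2 ANK3 turned to 0.16 and ADD1 stood at -0.32, the reverse of their order with all scores. With scores greater than 5 SPTBN1 stood at 0.85, on 6 cDNAs against 0.

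**Figure D2:**
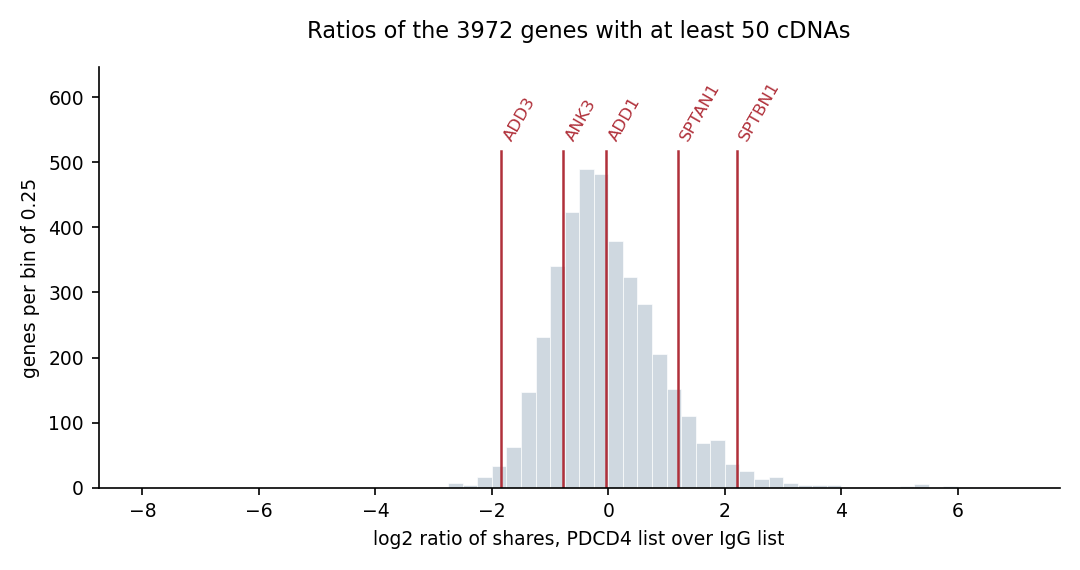
Grey bars count genes by log2 ratio of their shares in the PDCD4 and the IgG list (horizontal axis) for the 3972 genes with at least 50 cDNAs, and red lines mark the 5 members. SPTBN1 at 2.20 and ADD3 at -1.84 stand in opposite tails.

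The members also differed in where along the gene the sites lay. Regions were taken from all annotated transcripts of the gene, with coding sequence before 3′UTR, 5′UTR, exons of non-coding transcripts and introns. Over the 5 genes, coding sequence held 164 of the 318 PDCD4 sites (51.6%, 95% Wilson interval 46.1% to 57.0%) and 21 of the 119 IgG sites (17.6%, 11.8% to 25.5%). Introns held 65 PDCD4 sites (20.4%, 16.4% to 25.2%) and 69 IgG sites (58.0%, 49.0% to 66.5%). The coding log2 ratio of the 5 genes was 2.53 (2.13 to 3.002) and the intronic one -0.53 (-0.84 to -0.21). The same ratios over all listed genes were 1.11 and -0.43. Coding sequence thus stood higher in the PDCD4 list for genes in general, and among the 1399 genes with at least 20 coding cDNAs the median was 1.13, with SPTBN1 above 94.9% of them, SPTAN1 above 84.8% and ADD1 above 12.8%.

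Per length, the coding sequences of the spectrins stood above those of the other members in the PDCD4 list. The PDCD4 level per kb of annotated coding sequence, in cDNAs per 10000 of the list, was 0.820 for SPTBN1, 0.529 for SPTAN1, 0.188 for ADD1, 0.0461 for ADD3 and 0.00670 for ANK3. The IgG levels on this scale were 0.0447, 0.0911, 0.205, 0.0513 and 0.0124 in the same order of genes. For ADD1 and ADD3, counting error does not separate the lists in coding sequence, since their coding log2 ratios were -0.15 (-1.20 to 0.98) and -0.25 (-2.72 to 2.62). The intervals are wide because ADD1 had 19 and 14 coding cDNAs and ADD3 had 4 and 3.

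**Figure D3:**
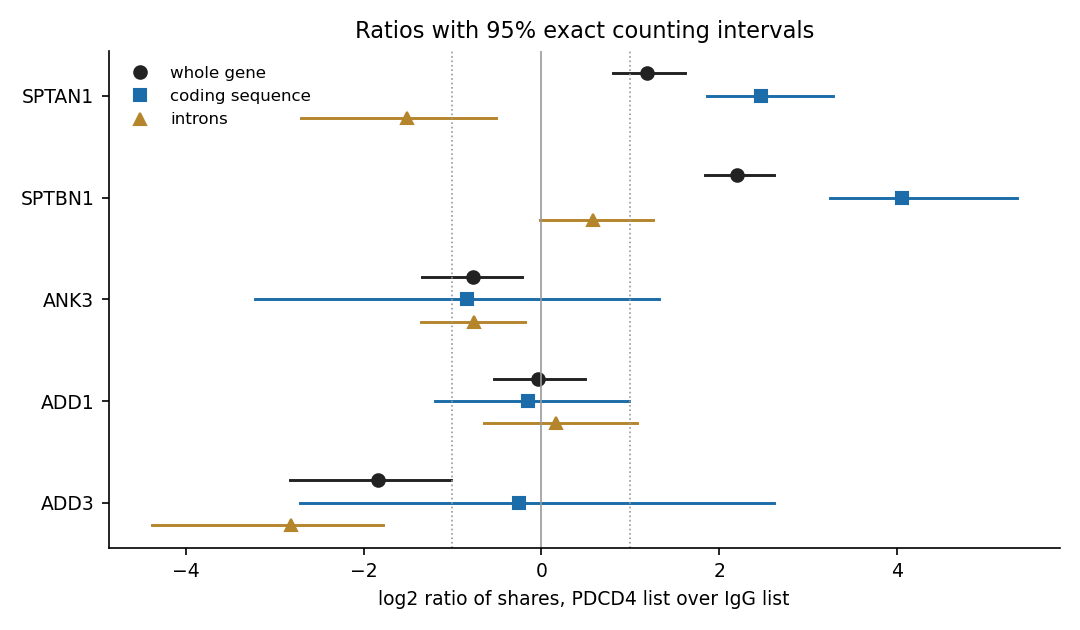
Points give the log2 ratio of shares, PDCD4 list over IgG list (horizontal axis), for the whole gene, its coding sequence and its introns, and bars give 95% exact counting intervals. Dotted lines mark 2-fold. The coding ratios of SPTBN1 (4.05) and SPTAN1 (2.47) lie above their gene ratios, and the intronic ratios of SPTAN1 (-1.51) and ADD3 (-2.82) lie below 0.

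SPTAN1 (ENSG00000197694) encodes αII-spectrin, the α chain of non-erythroid cells, and spans chr9:128552558-128633662 on the plus strand of GRCh38, the build of all coordinates given. Its coding sequence held 55 PDCD4 sites (172 cDNAs) and 9 IgG sites (20 cDNAs), a log2 ratio of 2.47 (1.86 to 3.28). Its 3′UTR held 46 and 5 cDNAs, a log2 ratio of 2.40 (1.31 to 4.32). In introns the order was the opposite, with 6 PDCD4 sites (12 cDNAs) and 10 IgG sites (24 cDNAs), a log2 ratio of -1.51 (-2.70 to -0.51). A further 8 IgG sites and 1 PDCD4 site lay in exons of non-coding transcripts, all of them intronic in the main transcript SPTAN1-203. Judged by that transcript alone, 7 PDCD4 sites and 19 IgG sites were intronic, so that exons of the mature mRNA carried most of the PDCD4 sites and introns most of the IgG sites.

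PDCD4 sites were scattered over the whole SPTAN1 mRNA. They fell into 26 of the 57 exons of SPTAN1-203, IgG sites into 7, and all 7 of those also held PDCD4 sites. When the 2477 codons were divided into 10 equal stretches, each held PDCD4 sites, from 6 cDNAs in stretch 4 to 33 in stretch 6, while IgG sites fell into 5 of them. The median distance between successive coding PDCD4 sites was 75 nt, and the longest stretch without one ran for 906 nt from codon 370 in exon 9 to codon 672 in exon 16. The scores were low: the highest was 7, at codon 133 in exon 4, followed by a score of 6 at codon 134 in the same exon, at codon 187 in exon 5 and at codon 1257 in exon 30. The highest IgG score was 4, at a site 44 nt before the end of intron 21. The sequences around these sites are shown because they carry the highest scores of the 5 genes, with capitals at the listed sites of the named list, 5′ to 3′ on the plus strand (GRCh38).
SPTAN1 exon 4, PDCD4, chr9:128574687-128574733: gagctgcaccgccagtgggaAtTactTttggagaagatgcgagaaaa
SPTAN1 exon 5, PDCD4, chr9:128575234-128575274: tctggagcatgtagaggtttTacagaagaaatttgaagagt
SPTAN1 intron 21, IgG, chr9:128591413-128591453: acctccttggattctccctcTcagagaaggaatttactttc
The exon 4 window holds 3 PDCD4 sites with 15 cDNAs within 7 nt, and no IgG site was listed in exons 4 or 5.

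The largest groups of SPTAN1 sites lay in the short 3′UTR of 331 nt. Sites no more than 20 nt apart were joined into clusters, which gave 44 PDCD4 clusters, 23 of them a lone site, and 28 IgG clusters, 27 of them a lone site. The largest PDCD4 cluster held 8 sites and 22 cDNAs and the next 7 sites and 21 cDNAs, both in exon 57. All 16 PDCD4 sites of the 3′UTR lay between 22 and 243 nt after the last codon, and 1 of them, at 22 nt, was also the position of an IgG site. The larger cluster is shown, since it holds the most sites and cDNAs of any cluster of the gene. An IgG site of 3 cDNAs, in lower case here, also lay in this window, 221 nt after the last codon. The first PDCD4 site of the cluster was at 222 nt.
SPTAN1 3′UTR, PDCD4, chr9:128633549-128633578: cctcAtTccgAcTtCaGaaaAtcgaAgcag
T made up 20.0% of the bases in this window.

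SPTBN1 (ENSG00000115306) encodes βII-spectrin, the partner chain that carries the actin- and ankyrin-binding regions, and spans chr2:54456317-54671446 on the plus strand. It had the largest difference between the lists among the members. Coding sequence held 98 PDCD4 sites (245 cDNAs) and 4 IgG sites (9 cDNAs), a log2 ratio of 4.05 (3.25 to 5.34). The 3′UTR held 99 and 24 cDNAs, a log2 ratio of 1.43 (0.82 to 2.18), and introns held 72 and 32, a log2 ratio of 0.58 (-0.02 to 1.25), which counting error does not separate from 0. The ratio was thus higher in coding sequence than in the 3′UTR or the introns, whose intervals lay below that of coding sequence and overlapped each other.

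Along the mRNA, PDCD4 sites lay in 29 of the 36 exons of the main transcript SPTBN1-202 and IgG sites in 5, all of which also held PDCD4 sites. All 10 equal stretches of the 2364 codons held PDCD4 sites, from 15 to 33 cDNAs each, and the longest stretch without a coding site was 424 nt, between codons 912 and 1053. By number, exon 14 (15 sites, 39 cDNAs) and exon 26 (12 sites, 30 cDNAs) led the coding exons, beside 1 IgG site of 2 cDNAs in each. The highest score, 6, stood at codon 2151 in exon 33, and scores of 5 stood at codon 620 in exon 14 and codon 1821 in exon 26. The IgG list reached 4 at most, first at a site in intron 2 that lies 31555 nt from the 5′ splice site. The windows around the top sites are shown with PDCD4 sites in capitals, and the intron 2 window with the IgG site in capitals.
SPTBN1 exon 33, PDCD4, chr2:54664464-54664504: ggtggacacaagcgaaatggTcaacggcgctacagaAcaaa
SPTBN1 exon 14, PDCD4, chr2:54628940-54629013: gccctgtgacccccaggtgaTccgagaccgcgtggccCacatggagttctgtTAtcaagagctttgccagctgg
SPTBN1 exon 26, PDCD4, chr2:54649844-54649899: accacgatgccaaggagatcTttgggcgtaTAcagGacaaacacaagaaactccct
SPTBN1 intron 2, IgG, chr2:54558101-54558141: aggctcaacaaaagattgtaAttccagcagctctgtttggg
The exon 14 and exon 26 windows each hold 4 PDCD4 sites with 13 cDNAs. T made up 21.6% of the bases in the exon 14 window, 16.1% in the exon 26 window and 9.76% in the exon 33 window.

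The 3′UTR sites of SPTBN1 lay in its proximal part in the PDCD4 list. All 41 PDCD4 sites in the last exon of SPTBN1-202 downstream of the coding sequence lay between 111 and 943 nt after the last codon, although this 3′UTR is 2880 nt long. In the IgG list, 10 of 11 sites lay within the first 1000 nt and 1 at 2063 nt. The largest PDCD4 clusters of the gene were here, with 13 sites and 31 cDNAs, and 11 sites and 21 cDNAs. The 30 nt of each with the most cDNAs are shown, since they differ from the coding windows in base composition.
SPTBN1 3′UTR, PDCD4, chr2:54668677-54668706: TTGATTTTtttttttttttaaTtTatagag
SPTBN1 3′UTR, PDCD4, chr2:54669238-54669267: CAATTTTttttTtttgctgaaatacatTaT
Both hold a run of T, of 15 and 12 bases, and the listed sites include the first bases of the run and those just before it, with others inside or after it. In the first of them, 1 of the 10 PDCD4 positions, in the T-rich stretch after the run, was also listed for IgG. A further IgG site of 3 cDNAs, in lower case here, lay inside the run. Together these 2 IgG sites, with 5 cDNAs, were the largest IgG cluster of the gene.

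A separate group of SPTBN1 sites fell into exons that the main transcript lacks. A shorter annotated transcript has its own first exon, chr2:54558394-54558887, inside intron 2 of SPTBN1-202, and its own last exon, chr2:54659936-54662308, which ends the protein after 2155 codons. The first exon held 10 PDCD4 sites with 26 cDNAs, all in its 5′UTR, and no IgG site. The last exon held 5 PDCD4 sites with 14 cDNAs, 1 of them coding and 4 in the 3′UTR, and again no IgG site. Against a floor of 3 counts in the IgG list, the observed PDCD4 share was 5.85-fold higher for the first exon and 3.15-fold higher for the last. These folds leave out the counting error of the PDCD4 cDNAs and are not lower limits. For the 26 against 0 cDNAs of the first exon, the 95% exact counting interval of the log2 ratio began at 2.15. Scores in these exons ran from 1 to 4, and 7 of the 10 sites in the first exon were at a T. Intron 2 outside this exon held 14 PDCD4 sites (36 cDNAs) and 5 IgG sites (17 cDNAs), so that both lists had sites in the surrounding intron.

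**Figure D4:**
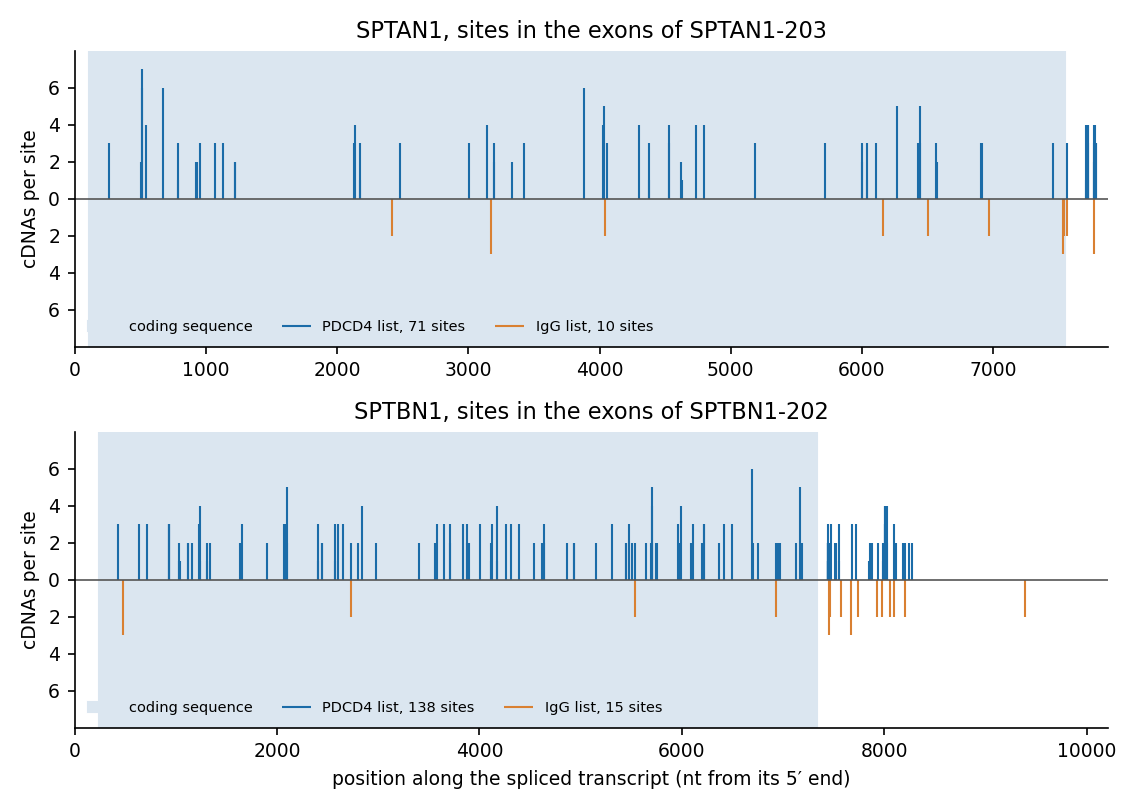
Lines stand at the sites along the spliced main transcripts of SPTAN1 and SPTBN1 (horizontal axis, nt from the 5′ end), with height giving cDNAs per site, PDCD4 upward and IgG downward, and shading for coding sequence. PDCD4 sites cover the coding sequence of both genes, and the last part of the SPTBN1 3′UTR, after 943 nt, is empty in the PDCD4 list.

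ANK3 (ENSG00000151150) encodes ankyrin-G and spans chr10:60026298-60733490 on the minus strand, the longest of the 5 genes at 707193 nt. Nearly all of its sites were intronic, 17 of 19 in the PDCD4 list and 26 of 28 in the IgG list. These introns held 48 and 55 cDNAs, a log2 ratio of -0.76 (-1.35 to -0.18), beside a median of -0.57 over the 4429 genes with at least 20 intronic cDNAs. Coding sequence held 2 sites in each list, with 4 and 5 cDNAs, and the 3′UTR of ANK3 held none in either. The main transcript of ANK3 begins 343615 nt downstream of the 5′ end of the gene, and 14 PDCD4 and 22 IgG sites lay upstream of it, in introns of the longer transcripts such as ANK3-205. The first 60 kb of the gene held 1 PDCD4 site and 9 IgG sites, and the stretch from 60 to 350 kb held 13 of each. These boundaries were chosen after the positions were seen, and counts this small do not establish a difference in place.

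No PDCD4 site of ANK3 lay within 20 nt of another or of an IgG site, and the scores did not exceed 4 in the PDCD4 and 3 in the IgG list. The top windows are shown, on the minus strand, to set deep intronic sites beside the coding windows of the spectrins.
ANK3 upstream intron, PDCD4, chr10:60633432-60633472: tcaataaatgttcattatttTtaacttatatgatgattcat
ANK3 upstream intron, PDCD4, chr10:60606915-60606955: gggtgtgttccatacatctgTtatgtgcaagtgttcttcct
ANK3 intron 37, PDCD4, chr10:60068154-60068194: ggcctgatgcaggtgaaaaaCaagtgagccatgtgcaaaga
ANK3 upstream intron, IgG, chr10:60731830-60731870: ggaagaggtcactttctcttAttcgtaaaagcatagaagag
The first pair of windows is 48.8% and 41.5% T, the intron 37 window 14.6%.

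ADD1 (ENSG00000087274) encodes α-adducin, a widely expressed subunit, and spans chr4:2843844-2930076 on the plus strand. Its 31 PDCD4 and 20 IgG sites were divided among regions in nearly the same way. Coding sequence held 8 and 5 sites, the 3′UTR 9 and 5, and introns 11 and 7. Intronic cDNAs numbered 34 and 20, a log2 ratio of 0.17 (-0.64 to 1.07), and those of the 3′UTR 23 and 13, a log2 ratio of 0.21 (-0.79 to 1.36). Every site of ADD1 stood alone at a distance of 20 nt in both lists. PDCD4 sites fell into 7 of the 16 exons of ADD1-229 and IgG sites into 4, of which 2 exons were shared. Exon 10 held 1 PDCD4 site of 3 cDNAs and 3 IgG sites of 9 cDNAs. The highest PDCD4 score of 4 was reached at 3 sites, all in introns 1 and 2, and the highest IgG score of 4 first in the 5′UTR.

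ADD3 (ENSG00000148700) encodes γ-adducin and spans chr10:109996368-110135565 on the plus strand. It was the member with the lowest ratio, and the difference lay in the introns. Introns held 3 PDCD4 sites (7 cDNAs) and 14 IgG sites (37 cDNAs), a log2 ratio of -2.82 (-4.38 to -1.79), below which lay 1.31% of the genes with enough intronic cDNAs. Of the IgG sites, 13 lay in intron 1, which is 92325 nt long, and the PDCD4 list had 1 site there. Outside introns the PDCD4 list had 3 sites and the IgG list 1. The top PDCD4 site had a score of 4, at codon 35 in exon 2, where the IgG list had a site of 3 cDNAs at codon 15. The coding window is shown beside the IgG cluster of intron 1, which joins 5 neighbouring positions with 13 cDNAs, with capitals at the sites of the named list.
ADD3 exon 2, PDCD4, chr10:110100738-110100778: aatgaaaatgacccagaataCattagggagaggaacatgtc
ADD3 intron 1, IgG, chr10:110026755-110026795: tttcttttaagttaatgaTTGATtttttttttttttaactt
The IgG window is 68.3% T, with a run of 14. Without this cluster the intron would still hold 8 other IgG sites.

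**Figure D5:**
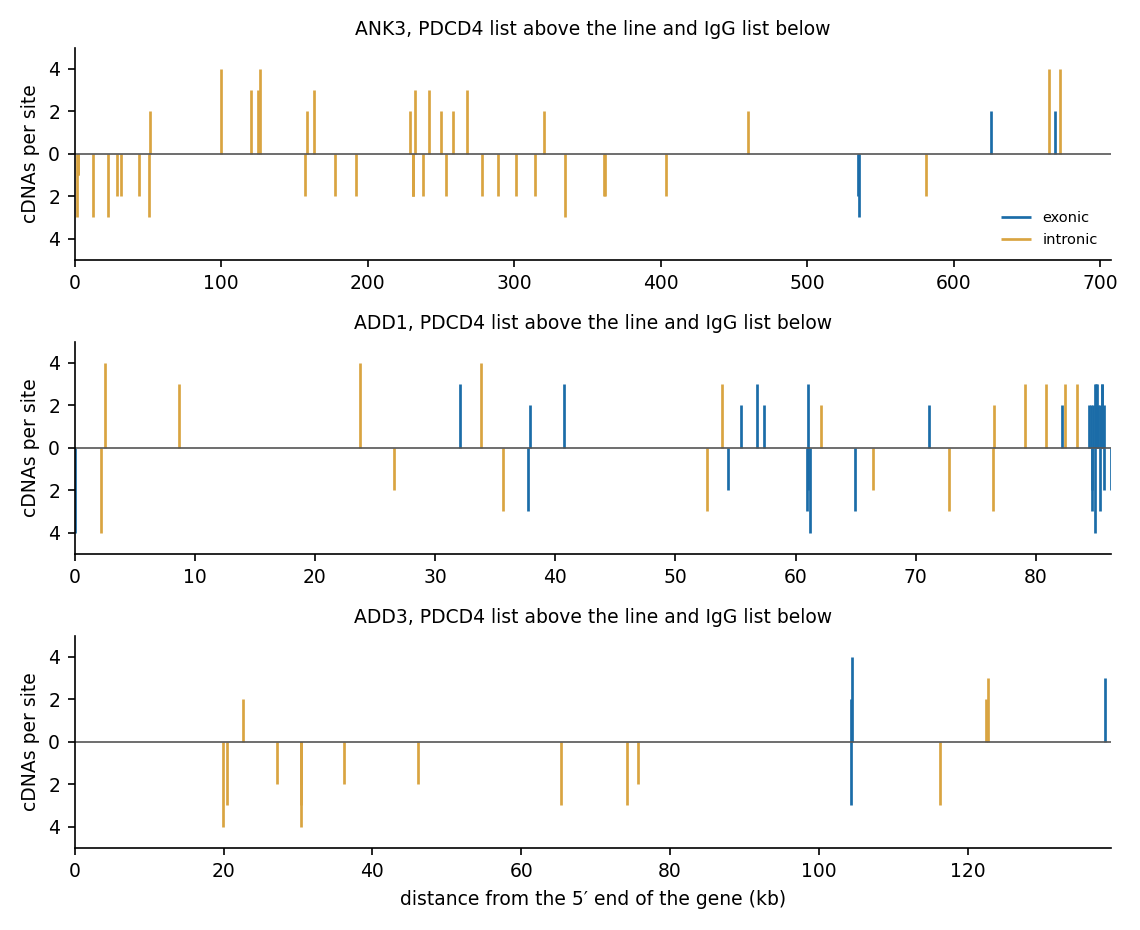
Lines stand at the sites along the unspliced genes ANK3, ADD1 and ADD3 (horizontal axis, kb from the 5′ end of the gene), with height giving cDNAs per site, PDCD4 upward and IgG downward, and colour for exonic or intronic. The 13 IgG sites in intron 1 of ADD3, of which 5 neighbouring ones fall together at this scale, stand against 1 PDCD4 site there.

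Few sites of the 5 genes reached the threshold of the study's methods, a score greater than 5. The PDCD4 list had 5 such sites, 4 in SPTAN1 and 1 in SPTBN1, all in coding sequence. That is 1.57% of the members' PDCD4 sites, close to the 1.48% of all PDCD4 sites. The IgG list had 0 of 119, which allows a share of up to 2.52%, beside 0.690% of all IgG sites. The members thus did not stand apart from their lists by this count. Most PDCD4 sites lay away from IgG sites: the median distance to the nearest IgG site of the same gene was 577 nt for SPTAN1 and 427.5 nt for SPTBN1, and 11 of 78 and 25 of 184 PDCD4 sites had an IgG site within 20 nt. No PDCD4 site of ANK3, ADD1 or ADD3 did. Each member had only 15 to 29 IgG sites, and these distances were not computed over all genes. They therefore do not show a trait of the members. A position listed in both lists occurred once in SPTAN1 and once in SPTBN1, 2 of the 721 in all. By the paper's methods, IgG positions were taken out of the PDCD4 replicates before peaks were called, a step that limits overlap by construction. The 721 positions in both lists show that the removal was not complete in them, for a reason that is not given.

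The base at the site was tallied for both spectrins. Among coding PDCD4 sites, 43.6% were at T in SPTAN1 (24 of 55, Wilson interval 31.4% to 56.7%) and 28.6% in SPTBN1 (28 of 98, 20.6% to 38.2%), intervals that overlap. C stood at 16.4% of these sites in SPTAN1 and 36.7% in SPTBN1, beside 33.2% of all coding PDCD4 sites, of which 34.4% were at T. Over the 5 genes, 34.1% of coding PDCD4 sites (27.3% to 41.7%) and 49.2% of intronic ones (37.5% to 61.1%) were at T, again with overlapping intervals. Of the intronic IgG sites, 58.0% (46.2% to 68.9%) were at T.

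Within exons, the 3′ end was empty. In internal exons of at least 120 nt, 63 PDCD4 sites of the 5 genes lay in the first 60 nt, 74 in the middle and 0 in the last 60 nt, which allows up to 2.19% of these sites. The middle parts are longer in sum, 14465 nt against 5460 nt for the first 60 nt, so the PDCD4 densities were 5.12 and 11.5 sites per kb. The IgG list had 5, 11 and 0 sites. SPTAN1, whose exons are short, had 32 PDCD4 sites in the first 60 nt and 18 in the middle, or 15.2 and 11.1 per kb. SPTBN1 had 26 and 53, or 18.8 and 16.8 per kb. Over all genes with such a transcript, the last 60 nt held 0.230 PDCD4 sites per kb and the first 60 nt 2.87, and in the IgG list 0.111 and 0.960. The thinning towards the exon end was therefore present in both lists and in genes at large, and its cause was not tested.

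Few other genes of the membrane skeleton were over 2-fold in either direction. Of 46 genes in 7 lists, 36 had a site and 23 had at least 50 cDNAs, of which 1 was over 2-fold higher in the PDCD4 list and 0 were over 2-fold lower, beside 13.6% and 12.7% of all compared genes. The median log2 ratio of the 23 was 0.12. The gene over 2-fold was PLEC, plectin, a linker of intermediate filaments with spectrin repeats, with 4278 and 193 cDNAs and a log2 ratio of 3.90 (3.69 to 4.12).

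Among the relatives of the members, ANK2, ankyrin-B, had 24 and 28 cDNAs and a log2 ratio of -0.78 (-1.64 to 0.05), near that of ANK3. SPTB, SPTBN4 and ANK1 had no site in either list. ADD2, β-adducin, had 6 and 5 cDNAs. In the protein 4.1 family, EPB41, which encodes the protein 4.1 that strengthens the contact of spectrin with actin, had a log2 ratio of -0.97 (-1.68 to -0.30). Its relatives EPB41L1 and EPB41L4A had ratios of -0.50 (-1.17 to 0.19) and -0.25 (-0.84 to 0.36).

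Among proteins of the actin filament, the capping protein subunits CAPZA1 and CAPZB had the highest ratios of those with at least 50 cDNAs. A further subunit, CAPZA2, fell below that minimum, with 16 and 17 cDNAs and a log2 ratio of -0.65 (-1.74 to 0.42). CAPZA1 had 195 and 70 cDNAs and a log2 ratio of 0.90 (0.51 to 1.33), and CAPZB 131 and 52 cDNAs and a log2 ratio of 0.75 (0.29 to 1.26). TMOD3, which caps the slow-growing end, had a log2 ratio of -0.12 (-0.58 to 0.36), and the tropomyosins TPM1, TPM3 and TPM4, which lie along the filament, of -0.28, 0.40 and -0.28. Of the membrane proteins that ankyrins hold, CD44, the hyaluronan receptor, had a log2 ratio of 0.68 (0.37 to 1.02), ITPR3, a calcium release channel, of 0.12 (-0.18 to 0.42), DAG1, dystroglycan, of -0.04 (-0.51 to 0.46) and CDH1, E-cadherin, of -0.39 (-0.91 to 0.15). Proteins with spectrin repeats outside the family, which link actin to other structures, lay on both sides of 0, with MACF1 at 0.65 (0.34 to 0.97), SYNE2 at 0.49 (-0.08 to 1.12), ACTN4 at 0.45 (0.17 to 0.73), DST at 0.25 (-0.0015 to 0.51), UTRN at -0.54 (-0.93 to -0.16) and ACTN1 at -0.58 (-0.83 to -0.34).

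Genes with the most similar distribution over regions and lists were found by the distance between 8 shares, those of coding sequence, 3′UTR, 5′UTR and introns in each list, among 1739 genes with at least 100 cDNAs. The distance runs from 0 for equal shares to 1 for no overlap. Nearest to SPTAN1 were HSP90AB1 (0.101) and EPRS (0.122), against a median distance of 0.618 over all these genes. Nearest to SPTBN1 were CEP250 (0.0992) and LMNA (0.112), with a median of 0.530. ARHGAP8 (0.0128) and IGSF9B (0.0293) were nearest to ANK3, ARHGAP23 (0.0807) and BMPR2 (0.0901) to ADD1, and CEP295 (0.0862) and KDM6A (0.107) to ADD3. None of the members was among these nearest genes. HSP90AB1 has near-identical copies elsewhere in the genome, so its counts are uncertain.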

How the data were processed

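iCLIP was performed on MCF10A cells with PDCD4 antibody or IgG, 2 replicates each. Per the paper's methods and the labels, the authors processed single-end reads with iCount against the Ensembl release 88 genome (GRCh38), removed IgG crosslink positions from the PDCD4 replicates, merged these and called peaks, which the study describes at a false discovery rate of 5%. The mapper and how cDNAs were counted are not given in the sources used here. The deposited lists hold 1-nt sites, each scored with an unnormalized count of cDNAs. Their scores start at 1, so the threshold of the methods (greater than 5) was not applied in them, and all scores were used here. Because IgG positions were removed first, although 721 positions remain in both lists, the lists are not independent. The totals, 409308 and 276139 cDNAs, set the precision.

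Sites were assigned to the labelled gene's transcripts in GENCODE release 44, which is of the same build but later, and the MANE transcript served for exon and codon numbers, the stop codon counting as 3′UTR. All 270283 sites lay within the chromosome lengths of the genome file. Reads of repeated sequence could be misplaced: the 30 nt after the site occur more than once in the genome for 9 of the 437 member sites. Counts were summed per gene, divided by the list's total and compared as log2 ratios with 1 cDNA added. Intervals are exact Clopper-Pearson (ratios) and Wilson (shares) at 95%. Intervals of differences between members add the counting errors of both. cDNAs of 1 list are not replicates, so no test was run, and the DESeq2 comparison of replicates in the study's methods had no counterpart here. Values are not corrected for RNA abundance.

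The 5 members, the gene lists and the markers were chosen with earlier results of these data known. Named are the 5 members, their 3 top PDCD4 sites and top IgG site (ties 5′ first), list genes with at least 50 cDNAs (some list genes are not reported here) and the 2 nearest genes per member. The shorter SPTBN1 transcript, the clusters, other exons, KRT5, DCN, CD14, CAPZA2 and the low or absent genes named among the relatives were added after their values were seen. Alternatives were thresholds on score, numbers of sites, a pseudocount of 5, other totals, leaving out shared, multiply labelled or repeated sites, the order of regions, 1 transcript per gene, merging within 20 nt and minima of 20 and 200 cDNAs. Ratios and intervals were tested on simulated data. Python 3.11.15, numpy 2.4.6, pandas 2.3.3, scipy 1.17.1, pysam 0.24.0 and matplotlib 3.10.9 were used. RNA-seq and other assays of the study were not analysed here.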

Additional observations from a re-analysis of the deposited data

How the results depend on the processing

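Of 97 values under other settings, 84 stayed within the counting interval of the reported value or within 1.5 times the reported count, 13 moved and 0 changed sign from a difference over 2-fold. With scores greater than 5 the log2 ratio was 2.74 for SPTAN1 (25 cDNAs against 0), 0.85 for SPTBN1 (6 against 0) and 3.04 for the coding sequence of the 5 genes (31 against 0), values that depend on the added cDNA, and 100% of the 5 PDCD4 sites were coding and 0% intronic. With scores greater than 2 the ratio of SPTAN1 was 2.01, and that of ANK3 turned from -0.77 to 0.16. With 1 transcript per gene the intronic ratio was -0.19 and the intronic share of IgG sites 48.7%, and with introns before exons the intronic shares were 31.4% (PDCD4) and 71.4% (IgG). Merging sites within 20 nt gave 29.2% for PDCD4. Counting sites, with at least 50 over both lists, left 1 member over 2-fold (SPTBN1), since SPTAN1 came to 0.88. The ratios of ADD1 (-0.32 to 0.09) and ADD3 (-2.02 to -1.67) stayed within their intervals under every setting that could be computed. No paired analysis was possible because each list pools its replicates, and for the same reason no replicate could be left out. Depth limits ADD3 most, with 16 cDNAs in the PDCD4 list.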

Other observations

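T-rich stretches with runs of listed sites occurred in both lists among the 5 genes. In the PDCD4 list, the 30 nt printed from the SPTBN1 3′UTR that begin with TTGATTTT held 10 sites and were 70.0% T. In the IgG list, 5 adjacent positions of ADD3 intron 1 covered TTGAT, whose last base is the first of a run of 14 T. Over all listed sites, T made up 32.3% of the bases within 10 nt for PDCD4 and 35.1% for IgG, and over the sites of the 5 genes 28.5% and 34.3%. ADD1 followed that order within 10 nt, with 27.4% for PDCD4 and 30.25% for IgG. At the site itself the order in ADD1 was the opposite, with 15 of 31 PDCD4 sites and 4 of 20 IgG sites at T (48.4%, Wilson interval 32.0% to 65.2%, and 20.0%, 8.07% to 41.6%), intervals that overlap.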
